A study of Mus musculus with 15 samples.

Results

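A set of 10 receptor and ligand genes of the IL-22, IL-10 and IL-17 cytokine families were followed through the colon of mice in 3 groups. The genes are Il22ra1, Il22ra2, Il10ra, Il10rb, Il17ra, Il17rc, Il17re, Il17rb, Il17c and Il22. They were taken by symbol from the deposited table, so they are 10 of its 22063 genes. The rule uses no measured value, but the set was proposed with earlier results of these data known. The WMW-H group (5 libraries) is the treatment arm of a colorectal cancer study of Wumei Wan, a traditional herbal formula. The AOM/DSS group (5 libraries) is the disease model, in which the carcinogen azoxymethane is combined with dextran sulfate sodium, an irritant of the gut lining. The Control group (5 libraries) is the blank group. The labels give strain C57BL/6, a wild-type genotype and colon tissue for all 15 libraries. For the WMW-H libraries the treatment label names WMW-H alone, and the series' text sets that group against the cancer model to judge a therapeutic effect. Age, sex, dose, schedule and the number of animals are not given in the sources used.

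IL-22 acts on epithelial cells through a pair of chains, IL22RA1, which is made by epithelial and not by blood cells, and IL10RB, which nearly all cells make. The same IL10RB chain also pairs with IL10RA, a chain of leukocytes, to receive IL-10, the cytokine that restrains inflammation in the gut. IL22RA2 is a secreted protein that binds IL-22 and blocks it. IL-17A and IL-17F signal through IL17RA with IL17RC, IL-17C through IL17RA with IL17RE, and IL-25 through IL17RA with IL17RB. In the colon, IL-22 drives epithelial repair, antimicrobial proteins and mucus, and IL-17 family cytokines raise chemokines and barrier genes in the epithelium.

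Positions are those of the GENCODE M21 annotation of GRCm38; the build behind the authors' values is not given in the sources used here. Il22ra1 lies at chr4:135728172-135752140, Il22ra2 at chr10:19621998-19634681 and Il22 at chr10:118204942-118210047. Il10ra lies at chr9:45253837-45269149. Il10rb, at chr16:91406164-91425834, stands between the interferon receptor genes Ifnar2 and Ifnar1, and a read-through gene model, Gm21970, overlaps it but was listed at 0 in each library. Il17re, at chr6:113458484-113470758, ends 668 bases before Il17rc, at chr6:113471427-113483140, begins on the same strand. Il17ra lies at chr6:120463247-120487559, Il17c at chr8:122422020-122423639 and Il17rb at chr14:29996135-30008896.

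RefSeq promoter windows (build GRCm38.p6) were found for 6 of the 10 genes. Of these, 2 are shown, the sequence before Il22ra1, a receptor chain whose AOM/DSS libraries lay apart from both other groups, and the sequence before Il17rc, which lies wholly in the short gap that follows Il17re. Both are on the plus strand, written 5′ to 3′. The Il22ra1 window is chr4:135727909-135728158 and the Il17rc window is chr6:113471205-113471426.
Il22ra1: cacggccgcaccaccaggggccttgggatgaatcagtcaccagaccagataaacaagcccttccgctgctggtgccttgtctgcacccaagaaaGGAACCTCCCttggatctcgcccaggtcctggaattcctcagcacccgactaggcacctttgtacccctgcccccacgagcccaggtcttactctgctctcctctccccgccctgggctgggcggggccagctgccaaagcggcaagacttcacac
Il17rc: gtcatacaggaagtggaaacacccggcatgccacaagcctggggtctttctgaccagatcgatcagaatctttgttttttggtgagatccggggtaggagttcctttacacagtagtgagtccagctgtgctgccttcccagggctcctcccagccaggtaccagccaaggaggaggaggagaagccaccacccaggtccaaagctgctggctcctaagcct
Capitals mark the single match to the NF-kB motif, GGAACCTCCC, which begins 156 bases before the RefSeq start of Il22ra1 and reads as the motif on the opposite strand. Both strands were searched, and 7.25% of 32851 promoter windows of 250 bases hold such a match. The STAT motif TTCNNNGAA, found in 7.02% of windows, and the dioxin response element TNGCGTG of the aryl hydrocarbon receptor, found in 4.1%, had no match in these 2 windows. None of these 3 motifs was matched in the windows of Il17re, Il17rb, Il17c or Il22.

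Values are FPKM, fragment counts scaled to transcript length and library depth, so levels can be compared between genes. For genes with several transcripts, such as Il17rc, the level also depends on how fragments were shared out among them. The depth, read from the steps between low values, was 16316000 to 21144000 fragments a library. WMW-H replicate 3 stood apart from the other libraries on the third principal component, which holds 1.87% of the variance, at 16.66 where the others lay between -5.715 and 1.555. The labelled cell type is colon epithelial cells, and the 10 epithelial markers were above 0 in each group, with sums of 7527 to 7980 FPKM in WMW-H, 8855 to 9013 FPKM in AOM/DSS and 8943 to 9043 FPKM in Control. Markers of other cells were present too, such as leukocyte, macrophage, fibroblast and smooth muscle genes. Genes of other organs moved with the groups: 10 pancreatic acinar genes made 1.64 to 1.76% of the FPKM total in WMW-H, 0.982 to 0.998% in AOM/DSS and 4.18 to 4.28% in Control. A further 7 seminal vesicle and prostate genes made 0.509 to 0.534% in AOM/DSS and at most 0.000783% elsewhere. The part of these differences in the receptor results was not tested.

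The 10 genes kept nearly the same order of level in the 3 groups. In each group Il17rc came first, at 72.5 ± 12.6 FPKM in WMW-H, 74.8 ± 9.05 FPKM in AOM/DSS and 88.6 ± 18.2 FPKM in Control (SD, n = 5 each). Il10rb, Il22ra1 and Il17re followed in this order, and in each group the libraries of these neighbours did not overlap. Il10ra and Il17ra came next and overlapped each other in each group. Il17rb and Il22ra2 lay below them, overlapping in WMW-H and AOM/DSS, whereas in Control the Il22ra2 libraries were all above those of Il17rb. The ligand genes Il17c and Il22 were at the foot of the order.

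**Figure D1:**
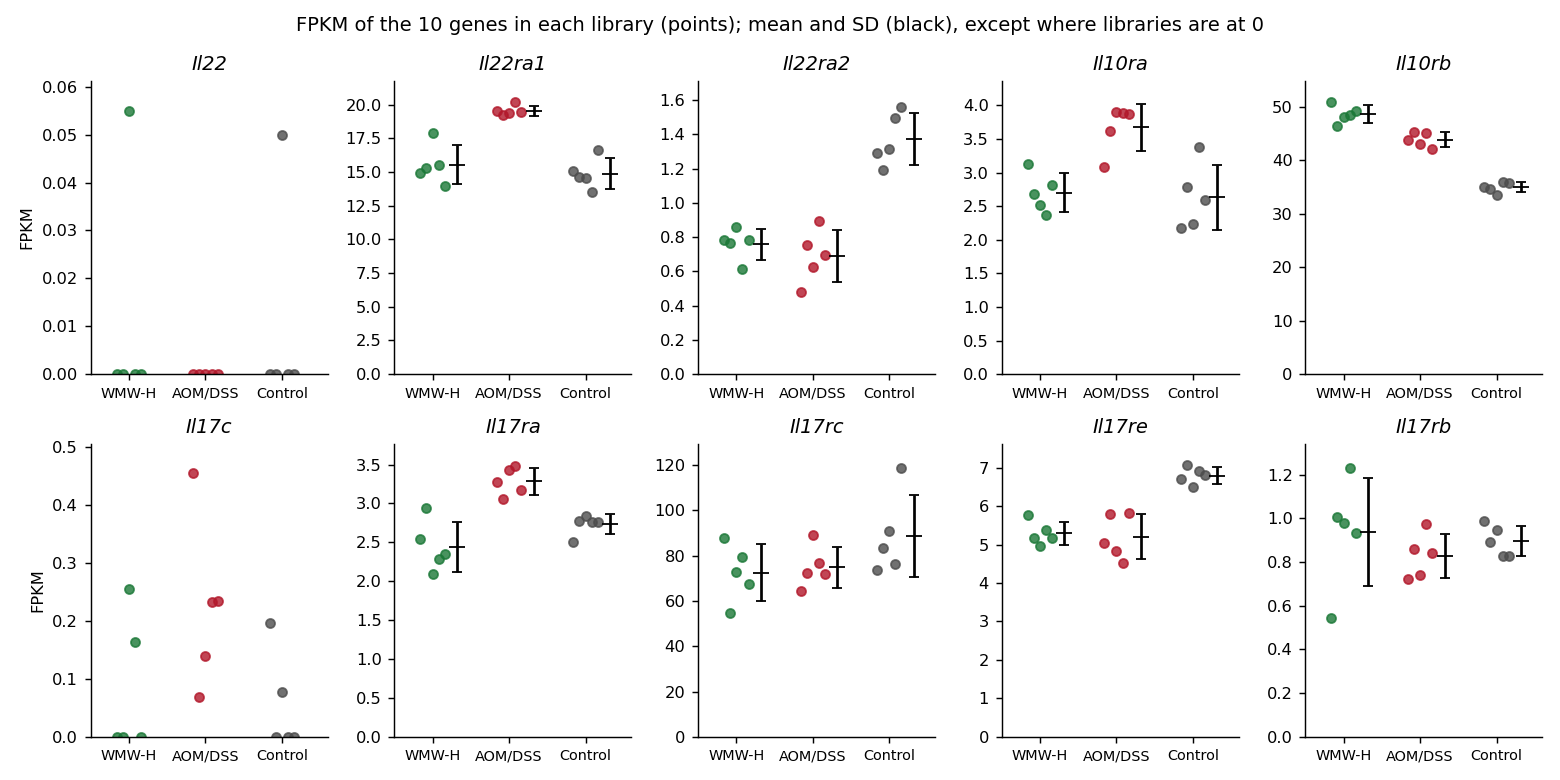
FPKM (linear axes from 0) of each of the 10 genes in the 5 WMW-H, 5 AOM/DSS and 5 Control libraries; each point is a library and the black mark is the mean with its SD, left out for Il22 and Il17c, which have libraries at 0. Il22ra1 stands at 19.2 to 20.2 FPKM in AOM/DSS, above every WMW-H and Control library, and Il10rb steps down through WMW-H, AOM/DSS and Control without overlap.

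AOM/DSS was set against Control to ask what the model changed in these receptors. Chains that receive IL-22 and IL-10 were higher in AOM/DSS: Il22ra1 by 0.37, Il10ra by 0.37 and Il10rb by 0.32 on the log2(FPKM + 1) scale. Il17ra, the shared chain of the IL-17 receptors, was higher by 0.20. Il17re fell by 0.33. The decoy receptor Il22ra2 was lower by 0.49, but it passed the filter of 1 FPKM in 5 libraries through Control alone, so its place among the genes tested fixed that direction. In limma, with adjustment over all 12917 genes tested, 4 of the 7 tested members rose, 2 were lower, Il22ra2 among them, and 1, Il17rc, was not called. With size factors the counts were 3 higher and 3 lower, as Il17ra was lost and Il17rc gained, and with quantile normalization 3 higher and 2 lower. Of all genes tested, 66.1% were called, 45.5% as higher and 20.6% as lower (68.9% of calls higher, but 51.4% with size factors and 47.5% with quantile normalization), and the members' count of 6 of 7 is read against that share and not as a result about the members. The median difference was 0.20 for the 7 genes and 0.12 for all genes. Because other scalings moved the median of all genes by more than 0.1, to 0.01 with size factors, differences relative to that median are given as well. They were 0.26 for Il22ra1, 0.25 for Il10ra, 0.20 for Il10rb, 0.08 for Il17ra, -0.34 for Il17rc, -0.45 for Il17re and -0.61 for Il22ra2.

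WMW-H was set against AOM/DSS to ask what differed under treatment. Il22ra1, Il10ra and Il17ra were lower in WMW-H, with log2 differences of -0.32, -0.34 and -0.32, and each had been higher in AOM/DSS than in Control. Il10rb was higher again, by 0.15. Il22ra2, Il17re and Il17rc were not called, with differences of 0.06, 0.02 and -0.06. In limma 1 of the 7 tested members rose, 3 fell and 3 were not called, where 66.8% of all genes tested were called, 25.9% as higher and 40.9% as lower (38.8% of calls higher, but 49.6% with quantile normalization). The medians were -0.06 for the 7 genes and -0.07 for all genes. This comparison and the one before share the AOM/DSS libraries, so opposite signs in them are not independent of each other.

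WMW-H was also set against Control. Il10rb rose by 0.46 and Il17re fell by 0.31 on the log2 scale. Il22ra2 was lower by 0.43, again a direction fixed by the filter that it passed through Control alone. Il22ra1 and Il10ra differed by 0.06 and 0.03, and neither passed the test. In limma 1 of the 7 tested members was higher, 2 were lower, Il22ra2 among them, and 4 were not called, where 59.5% of all genes tested were called, 35.4% as higher and 24.1% as lower (59.5% of calls higher, but 48% with quantile normalization). The medians were -0.12 for the 7 genes and 0.05 for all genes. With median-of-ratios size factors 4 were lower in place of 2, as Il17ra and Il17rc then passed, and with quantile normalization 3.

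**Figure D2:**
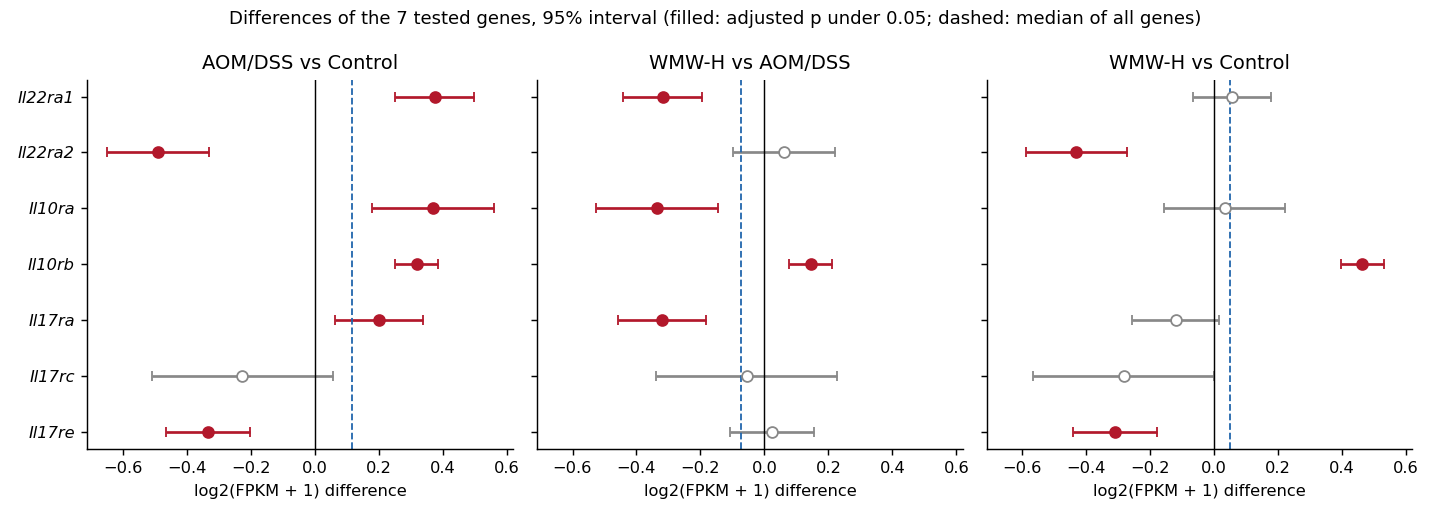
Differences in mean log2(FPKM + 1) of the 7 tested genes in the 3 comparisons, with 95% intervals from limma; filled red points passed an adjusted p of 0.05, open grey points did not, and the dashed line is the median of all genes tested. Il22ra1, Il10ra and Il17ra lie to the right of 0 in AOM/DSS against Control and to the left in WMW-H against AOM/DSS, and Il10rb lies to the right in each panel.

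The ligand Il22 was hardly detected. It was listed at 0.055 FPKM in WMW-H replicate 3 and at 0.05 FPKM in Control replicate 3, each the value of 1 fragment, and at 0 in the other 13 libraries, all 5 of AOM/DSS included. A floor of 3 fragments over a group's 5 libraries amounts to 0.0307 FPKM in WMW-H, 0.0287 FPKM in AOM/DSS and 0.0288 FPKM in Control, and intervals and floors here cover counting error only. No difference between groups was detectable at this depth, and no fold is given. Mice of some strains carry a near copy of the gene, Iltifb, and the GRCm38 annotation used here holds it, 79581 bases from Il22. Its transcript was 97.3% identical to that of Il22 over an alignment with 29 mismatched bases. Fragments of the 2 cannot always be told apart, so the Il22 values depend on how fragments were shared between them. Iltifb is not analysed here.

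Il17c, the IL-17 family member that epithelial cells make themselves, was also low. Its values were 0, 0, 0.255, 0.163 and 0 FPKM in WMW-H, 0.454, 0.069, 0.14, 0.232 and 0.235 FPKM in AOM/DSS and 0.197, 0, 0.077, 0 and 0 FPKM in Control. All 5 AOM/DSS libraries held at least 1 fragment, against 2 libraries in each of the other groups, and the ranges overlapped. The gene has 1 annotated transcript of 719 nucleotides, so the values convert to 5 fragments in WMW-H, 15 in AOM/DSS and 4 in Control. Pooled, this is 0.0790 FPKM in WMW-H (exact Poisson 95% interval 0.0256 to 0.184), 0.222 FPKM in AOM/DSS (0.124 to 0.365) and 0.0592 FPKM in Control (0.0161 to 0.152). The gene did not pass the filter of 1 FPKM in 5 libraries. By an exact permutation test over libraries, two-sided, AOM/DSS differed from Control at p = 0.0397, and at p = 0.0753 after adjustment over all genes above 0. An unfiltered limma fit put the same difference just past the threshold (adjusted p = 0.0494). WMW-H did not pass against AOM/DSS (exact permutation adjusted p = 0.202) or Control (0.934).

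Il22ra1 (ENSMUSG00000037157), the epithelial chain of the IL-22 receptor, separated AOM/DSS from both other groups. It was at 14.9, 15.3, 17.9, 15.5 and 14.0 FPKM in the WMW-H libraries. The AOM/DSS libraries had 19.5, 19.2, 19.3, 20.2 and 19.5 FPKM, and the Control libraries 15.05, 14.7, 14.6, 13.5 and 16.6 FPKM. All 5 AOM/DSS libraries lay above each of the other 10, and WMW-H overlapped Control. Such gaps were common: 36.9% of genes tested were higher without overlap in AOM/DSS against Control. In WMW-H against AOM/DSS 32.3% were lower without overlap. The rise of Il22ra1 in AOM/DSS against Control was 1.31-fold in the means, with a log2 difference of 0.37 ± 0.06 (SE, limma adjusted p = 1.78e-05). Against AOM/DSS, WMW-H was lower by 0.32 (limma adjusted p = 9.47e-05), and without WMW-H replicate 3, its highest library, by 0.37 (5.16e-06). WMW-H and Control differed by 0.06, with a 95% interval of -0.07 to 0.18 (limma adjusted p = 0.411). In a bulk sample, fewer cells of a type and less RNA per cell cannot be told apart.

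The AOM/DSS libraries of Il22ra1 lay close together. The coefficient of variation was 9.33% in WMW-H, 1.91% in AOM/DSS and 7.52% in Control. Counting alone would give 3.78%, 3.25% and 3.73% in these groups, from 589 to 998 fragments a library, so the AOM/DSS libraries scattered less than their own counts would on average. Of the 10 epithelial markers, 4 were higher and 4 lower in AOM/DSS than in Control, and 3 were higher and 6 lower in WMW-H than in AOM/DSS. In WMW-H 2 were higher and 8 lower than in Control. The balance in AOM/DSS against Control depended on scaling, with 2 higher and 5 lower with size factors and 7 higher and 3 lower with quantile normalization. All genes tested had 45.5% higher and 20.6% lower, 25.9% and 40.9%, and 35.4% and 24.1% in these 3 comparisons. Per 1000 FPKM of the 10 epithelial markers, Il22ra1 stood at 1.98 ± 0.235 in WMW-H, 2.19 ± 0.0521 in AOM/DSS and 1.66 ± 0.124 in Control (SD, n = 5 each). On this measure the WMW-H libraries, at 1.76 to 2.38, overlapped both AOM/DSS, at 2.13 to 2.27, and Control, at 1.51 to 1.85. This ratio and those below were chosen after the values were seen and carry no test.

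Il22ra2 (ENSMUSG00000039760), the soluble IL-22 antagonist, was high in Control alone. It had 0.78, 0.763, 0.856, 0.611 and 0.782 FPKM in WMW-H, 0.479, 0.752, 0.625, 0.892 and 0.698 FPKM in AOM/DSS and 1.29, 1.19, 1.32, 1.496 and 1.56 FPKM in Control. The lowest Control library lay above the highest of the other 10, and WMW-H and AOM/DSS overlapped. Among all genes tested, 16% were lower without overlap in AOM/DSS against Control and 17% in WMW-H against Control. Il22ra2 passed the filter through its Control libraries alone, which fixed its direction against Control in both comparisons, so tests over unfiltered genes are given. In limma with no filter on low values, it was lower in AOM/DSS than in Control by 0.49 (adjusted p = 1.10e-05) and in WMW-H than in Control by 0.43 (5.73e-05). Exact permutation tests over all genes above 0 gave adjusted p-values of 0.0194 and 0.0248 for the same differences. WMW-H and AOM/DSS differed by 0.06, with a 95% interval of -0.10 to 0.22 (limma without the filter, adjusted p = 0.478). The values rest on 26 to 39 fragments a library in WMW-H, 22 to 40 in AOM/DSS and 52 to 73 in Control, and the spread within groups was close to that of counting. Dendritic cells are a known source of this antagonist. The 8 dendritic cell markers summed to 8.998 to 10.46 FPKM in WMW-H, 13.8 to 15.1 FPKM in AOM/DSS and 9.90 to 12.4 FPKM in Control, none of them at 0 throughout a group. Of the 3 that passed the filter, 2 were higher and 1 lower in AOM/DSS than in Control. The part of these cells in the Il22ra2 difference was not tested.

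The ratio of the signalling chain to the decoy was therefore lowest in Control. Il22ra1 over Il22ra2 was 20.7 ± 2.87 in WMW-H, 29.6 ± 6.98 in AOM/DSS and 10.9 ± 1.23 in Control (SD, n = 5 each). The WMW-H libraries ranged over 17.9 to 25.4 and overlapped those of AOM/DSS, at 22.6 to 40.8, and the highest Control library was at 12.3. Both genes entered the ratio in WMW-H against AOM/DSS, with means 0.794-fold for Il22ra1 and 1.1-fold for Il22ra2, the latter not called. Within AOM/DSS the coefficient of variation was 1.91% for Il22ra1 and 22.2% for Il22ra2. The spread of the ratio there thus came mostly from Il22ra2, which rests on 22 to 40 fragments a library.

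**Figure D3:**
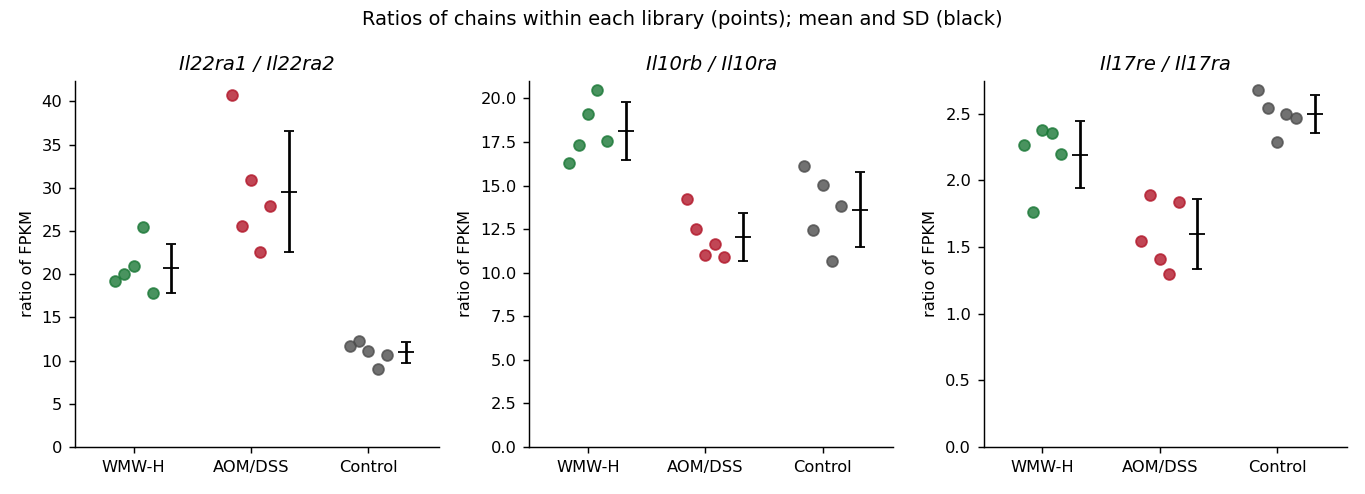
Ratios of FPKM between chains within each library (points; linear axes from 0) in WMW-H, AOM/DSS and Control, with the mean and SD in black. Il22ra1 over Il22ra2 averages 20.7, 29.6 and 10.9 in the 3 groups, Il10rb over Il10ra 18.2, 12.1 and 13.6, and Il17re over Il17ra 2.19, 1.60 and 2.49.

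Il10rb (ENSMUSG00000022969), the chain shared by the receptors of IL-10, IL-22 and the lambda interferons, was the one member ordered across all 3 groups. It had 50.9, 46.4, 48.1, 48.5 and 49.3 FPKM in WMW-H. In AOM/DSS it had 43.8, 45.3, 43.0, 45.2 and 42.2 FPKM, and in Control 35.1, 34.6, 33.5, 35.97 and 35.8 FPKM. No library of a group overlapped another group. The rise in AOM/DSS against Control was 0.32 (SE 0.03, limma adjusted p = 8.89e-08), that in WMW-H against AOM/DSS 0.15 (0.000528) and that in WMW-H against Control 0.46 (1.25e-09). Libraries that did not overlap were found for 52.9% of genes tested in AOM/DSS against Control (36.9% as higher), 51.2% in WMW-H against AOM/DSS (18.8% as higher) and 42.3% in WMW-H against Control (25.3% as higher). The share of genes ordered without overlap across all 3 groups was not counted.

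In WMW-H, Il10rb parted from Il22ra1 and Il10ra, chains it works with. Over Il22ra1 it stood at 3.16 ± 0.328 in WMW-H, 2.25 ± 0.0684 in AOM/DSS and 2.36 ± 0.185 in Control. Over Il10ra it stood at 18.2 ± 1.66 in WMW-H, 12.1 ± 1.36 in AOM/DSS and 13.6 ± 2.15 in Control (SD, n = 5 each). In both ratios every WMW-H library lay above every AOM/DSS and Control library, and AOM/DSS and Control overlapped. Against AOM/DSS, Il10rb was called higher and both other chains lower, so the gaps there largely repeat those calls. How often other pairs of genes part in this way was not counted. Over Il10ra the gap was narrow, with the lowest WMW-H library at 16.27 and the highest Control library at 16.13.

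The interferon receptor chains, of which Ifnar2, Ifnar1 and Ifngr2 are neighbours of Il10rb on chromosome 16, give a comparison from outside the 10 genes. Of 4 tested, all rose in AOM/DSS against Control and in WMW-H against Control, and Ifngr1 and Ifngr2, the chains for interferon gamma, were called higher in WMW-H against AOM/DSS. The share of all genes tested called higher was 45.5%, 35.4% and 25.9% in these comparisons. Ifngr2 was at 55.3 ± 4.18 FPKM in WMW-H, 48.8 ± 3.26 FPKM in AOM/DSS and 32.9 ± 2.67 FPKM in Control (SD, n = 5 each), the same order as Il10rb. Ifnar1, a chain for type I interferon, was at 15.6 ± 1.14, 16.98 ± 0.68 and 11.1 ± 0.873 FPKM in WMW-H, AOM/DSS and Control, and its difference of -0.12 in WMW-H against AOM/DSS was not called (limma adjusted p = 0.0702). With each library rescaled to TPM, 0 of the 4 were higher and 2 were lower in that comparison. Ifnlr1, which pairs with Il10rb for lambda interferon, was at 3.54 ± 0.114 FPKM in WMW-H, 4.43 ± 0.326 FPKM in AOM/DSS and 2.57 ± 0.208 FPKM in Control. It rose in AOM/DSS against Control by 0.60 (limma adjusted p = 4.69e-08) and fell in WMW-H against AOM/DSS by 0.26 (0.000615).

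Il10ra (ENSMUSG00000032089), the leukocyte chain of the IL-10 receptor, was higher in AOM/DSS with some overlap. It had 3.13, 2.67, 2.52, 2.37 and 2.81 FPKM in WMW-H, 3.08, 3.62, 3.90, 3.88 and 3.87 FPKM in AOM/DSS and 2.18, 2.78, 2.23, 3.38 and 2.59 FPKM in Control. The lowest AOM/DSS library, replicate 1, fell within the range of both other groups, and the other 4 lay above all of their libraries. The gene rose in AOM/DSS against Control by 0.37 (SE 0.09, limma adjusted p = 0.00131) and fell in WMW-H against AOM/DSS by 0.34 (0.0027). WMW-H and Control differed by 0.03, with a 95% interval of -0.16 to 0.22 (0.761), and the sign of that difference turned with size factors and quantile normalization.

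Leukocyte markers were counted beside Il10ra. Of 10, 6 were higher and 1 lower in AOM/DSS than in Control, and 1 was higher and 8 lower in WMW-H than in AOM/DSS, the directions of Il10ra. In WMW-H against Control, where Il10ra was not called, 1 was higher and 5 were lower. Their sum was 148 to 162 FPKM in WMW-H, 205 to 227 FPKM in AOM/DSS and 175 to 180 FPKM in Control, with no marker at 0 throughout a group. Per 100 FPKM of these markers, Il10ra stood at 1.74 ± 0.218 in WMW-H, 1.72 ± 0.202 in AOM/DSS and 1.49 ± 0.287 in Control (SD, n = 5 each), and the groups overlapped. Of 11 macrophage and monocyte markers, 9 were higher and 2, Ly6c2 and Ccr2, lower in AOM/DSS than in Control. In WMW-H 2 were higher and 5 lower than in AOM/DSS, and 10 were higher and 1 lower than in Control. With size factors, and with quantile normalization, the count of these markers in WMW-H against AOM/DSS was 4 higher and 5 lower. The macrophage and monocyte markers summed to 540 to 581 FPKM in WMW-H, 684 to 699 FPKM in AOM/DSS and 341 to 364 FPKM in Control. T cell markers summed to 23.2 to 28.1, 26.7 to 31.2 and 34.0 to 37.4 FPKM in WMW-H, AOM/DSS and Control. Beside these counts, 45.5% of all genes tested were called higher and 20.6% lower in AOM/DSS against Control. The shares were 25.9% and 40.9% in WMW-H against AOM/DSS, and 35.4% and 24.1% in WMW-H against Control. The part of leukocytes, macrophages and T cells in the Il10ra differences was not tested.

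Il17ra (ENSMUSG00000002897), the chain common to the IL-17 receptors, was highest in AOM/DSS. It had 2.54, 2.94, 2.09, 2.28 and 2.36 FPKM in WMW-H, 3.28, 3.06, 3.43, 3.48 and 3.17 FPKM in AOM/DSS and 2.51, 2.78, 2.84, 2.76 and 2.76 FPKM in Control. All 5 AOM/DSS libraries lay above each of the others, and WMW-H overlapped Control. The share of all genes tested that was higher without overlap in AOM/DSS against Control was 36.9%. The share lower without overlap in WMW-H against AOM/DSS was 32.3%. Il17ra was lower in WMW-H than in AOM/DSS by 0.32 (SE 0.06, limma adjusted p = 0.000272). The rise in AOM/DSS against Control, 0.20 (limma adjusted p = 0.0104), was lost with size factors (0.138) and quantile normalization (0.508). The difference of -0.12 in WMW-H against Control was not called (0.111), but passed with size factors (0.0363), with quantile normalization (0.0122) and without WMW-H replicate 2 (0.0192).

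Il17rc (ENSMUSG00000030281), the partner of Il17ra for IL-17A and IL-17F, was abundant and variable. It had 87.9, 54.5, 73.0, 79.3 and 67.6 FPKM in WMW-H, 64.4, 72.4, 89.0, 76.7 and 71.8 FPKM in AOM/DSS and 73.6, 83.2, 91.0, 76.4 and 118.9 FPKM in Control. The 3 groups overlapped, with Control replicate 5 the highest library and WMW-H replicate 2 the lowest. None of the differences passed: -0.23 in AOM/DSS against Control (limma adjusted p = 0.135), -0.06 in WMW-H against AOM/DSS (0.72) and -0.28 in WMW-H against Control (0.0715). With size factors the first was called (0.0289) and so was the last (0.0358). The last was also called without Control replicate 1 (0.0393) or WMW-H replicate 1 (0.029).

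The scatter of Il17rc was large for a gene of its level. Its residual SD within groups was 0.237 on the log2 scale, which is 4.54 times the median, 0.0523, of the 500 tested genes nearest to it in mean level. None of the 500 was above it, and the highest of them was at 0.234. The other 6 tested members had a residual SD of 0.04 to 0.14, or 0.647 to 1.11 times the median of their own 500 nearest genes. Il17rc has 5 annotated transcripts of 186 to 2302 nucleotides, so an FPKM for it depends on how fragments were shared out among them. Il17re, its upstream neighbour, has 9 of 771 to 2940 nucleotides, and its residual SD was 0.796 times the median of its 500 nearest genes. Whether transcript assignment entered the spread of either gene was not tested.

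**Figure D4:**
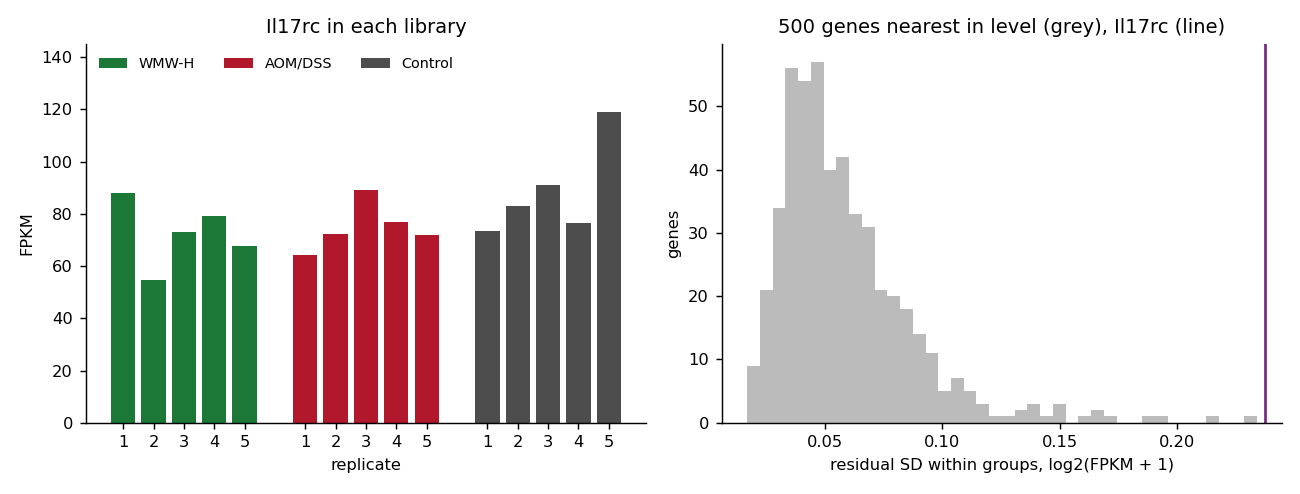
Left, FPKM of Il17rc in each library (bars from 0) by replicate number for WMW-H, AOM/DSS and Control; right, the residual SD within groups of log2(FPKM + 1) for the 500 tested genes nearest to Il17rc in mean level (grey histogram) and for Il17rc (line). Il17rc runs over 54.5 to 118.9 FPKM, and its SD of 0.237 lies beyond the highest of the 500, 0.234.

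Il17re (ENSMUSG00000043088), the partner of Il17ra for IL-17C, was lower in both groups than in Control. It had 5.76, 5.18, 4.97, 5.38 and 5.17 FPKM in WMW-H, 5.05, 5.79, 4.83, 4.52 and 5.82 FPKM in AOM/DSS and 6.71, 7.06, 6.49, 6.90 and 6.80 FPKM in Control. Each Control library lay above each of the other 10, while WMW-H and AOM/DSS overlapped. Lower values without overlap were found for 16% of genes tested in AOM/DSS against Control and 17% in WMW-H against Control. Il17re fell in AOM/DSS against Control by 0.33 (SE 0.06, limma adjusted p = 0.000118) and in WMW-H against Control by 0.31 (0.000299). WMW-H and AOM/DSS differed by 0.02, with a 95% interval of -0.11 to 0.15 (0.747), and the sign turned with TPM. Per 1000 FPKM of the 10 epithelial markers, Il17re stood at 0.672 ± 0.0317 in WMW-H, 0.584 ± 0.0642 in AOM/DSS and 0.757 ± 0.0210 in Control. Over Il17ra it stood at 2.19 ± 0.252 in WMW-H, 1.60 ± 0.261 in AOM/DSS and 2.49 ± 0.142 in Control (SD, n = 5 each).

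Il17rb (ENSMUSG00000015966), the partner of Il17ra for IL-25, stayed below the filter. It had 0.546, 1.01, 0.978, 1.23 and 0.934 FPKM in WMW-H, 0.721, 0.858, 0.742, 0.973 and 0.844 FPKM in AOM/DSS and 0.987, 0.891, 0.945, 0.829 and 0.829 FPKM in Control. WMW-H held both the lowest and the highest library, and the 3 groups overlapped. Exact permutation tests gave adjusted p-values of 0.37 for AOM/DSS against Control, 0.577 for WMW-H against AOM/DSS and 0.904 for WMW-H against Control. By the same test across all 10 genes, 6 were called in AOM/DSS against Control, 4 in WMW-H against AOM/DSS and 3 in WMW-H against Control, where 48.8%, 42.6% and 37.4% of all genes above 0 were called.

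Among the ligands other than Il22 and Il17c, only Il17d passed the filter. None of the 6 other IL-10 family ligands passed the filter, and Il10 itself ranged over 0 to 0.416 FPKM in WMW-H, 0.083 to 0.264 FPKM in AOM/DSS and 0.041 to 0.289 FPKM in Control. Of the other IL-17 family ligands, Il17d alone was tested, at 2.62 ± 0.518, 2.63 ± 0.297 and 2.82 ± 0.634 FPKM in WMW-H, AOM/DSS and Control (SD, n = 5 each), with no call in any comparison. Il17rd, a receptor-like protein that modulates IL-17 signals, was at 1.26 ± 0.103 FPKM in WMW-H, 2.596 ± 0.191 FPKM in AOM/DSS and 1.02 ± 0.133 FPKM in Control. It rose in AOM/DSS against Control by 0.83 (limma adjusted p = 2.99e-09) and fell in WMW-H against AOM/DSS by 0.67 (6.4e-08). Its rise of 0.17 in WMW-H against Control (0.0302) was lost with size factors and quantile normalization, with an adjusted p of up to 0.339.

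Genes upstream of the ligands were measured in part. Of 16 inducers and producers of IL-17 and IL-22, 8 were tested, of which 6 rose and 1 fell in AOM/DSS against Control, with a median of 0.34 against 0.12 for all genes. In WMW-H against AOM/DSS 1 rose and 3 fell, with a median of -0.15 against -0.07. Among all genes tested, 45.5% rose and 20.6% fell in the first of these comparisons, and 25.9% rose and 40.9% fell in the second. Il23a, a subunit of the cytokine that sustains IL-17 and IL-22 producers, rose in AOM/DSS against Control by 1.75 (limma adjusted p = 2.31e-11) and fell in WMW-H against AOM/DSS by 0.74 (1.77e-06). Il1b, a further inducer, was at 5.27 ± 0.665 FPKM in WMW-H, 10.3 ± 0.782 FPKM in AOM/DSS and 1.26 ± 0.301 FPKM in Control. Il1r1, a receptor chain for IL-1, rose in WMW-H against AOM/DSS by 0.32 (limma adjusted p = 0.000102). Il23r and Ccr6, surface proteins of these cells, did not pass the filter.

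Signal transducers of the IL-22 and IL-10 receptors moved in both directions, as genes in general did. Of 12 JAK-STAT genes, 6 rose and 3 fell in AOM/DSS against Control (median 0.12 against 0.12 for all genes), WMW-H against AOM/DSS had 4 higher and 7 lower (-0.20 against -0.07) and WMW-H against Control had 6 higher and 6 lower. With quantile normalization the first count turned to 4 higher and 5 lower and the last to 3 higher and 6 lower. Of all genes tested, 45.5% were called higher and 20.6% lower in AOM/DSS against Control, which the list's count was near. The shares were 25.9% and 40.9% in WMW-H against AOM/DSS, and 35.4% and 24.1% in WMW-H against Control. Stat3, the main transducer of IL-22 and IL-10, was at 43.6 ± 1.18 FPKM in WMW-H, 55.6 ± 1.02 FPKM in AOM/DSS and 38.8 ± 0.95 FPKM in Control. Socs3, its feedback inhibitor, was at 9.48 ± 0.729, 15.3 ± 0.994 and 5.23 ± 0.491 FPKM in WMW-H, AOM/DSS and Control. Both were called in all 3 comparisons, higher in AOM/DSS than in either other group and higher in WMW-H than in Control. Tyk2, a kinase bound to Il10rb, fell in WMW-H against AOM/DSS by 0.52 (limma adjusted p = 1.9e-09). Socs1, a further feedback inhibitor, went against this pattern and fell in AOM/DSS against Control by 0.92 (4.79e-09) and in WMW-H against Control by 0.85 (2.17e-08).

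The 7 tested of 8 IL-10 response genes of myeloid cells all rose in AOM/DSS against Control and all fell in WMW-H against AOM/DSS. Their medians were 0.64 and -0.56, against 0.12 and -0.07 for all genes, and quantile normalization left 6 called in each. WMW-H against Control had 3 higher and 1 lower. Shares over all genes tested were 45.5% higher in AOM/DSS against Control and 40.9% lower in WMW-H against AOM/DSS. In WMW-H against Control they were 35.4% higher and 24.1% lower. Sbno2, a corepressor of IL-10 action, was at 18.5 ± 1.08 FPKM in WMW-H, 27.8 ± 0.812 FPKM in AOM/DSS and 19.5 ± 0.86 FPKM in Control. Il4ra, a chain of the IL-4 receptor, fell in WMW-H against AOM/DSS by 0.55 (limma adjusted p = 1.35e-08). Bcl3, an NF-kB cofactor, was the gene called lower in WMW-H than in Control, by 0.28 (1.29e-05). These genes answer to cytokines other than IL-10 too. Bcl3 and Socs3 are in the IL-22 list as well, and Socs3 is also among the JAK-STAT genes, so these counts are not independent.

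Of 18 epithelial genes that IL-22 induces, 17 were tested; 13 rose and 2 fell in AOM/DSS against Control (median 0.85 against 0.12), and WMW-H against AOM/DSS had 4 higher and 12 lower (-0.48 against -0.07). WMW-H against Control had 15 higher and 2 lower (0.75 against 0.05). All genes tested had 45.5% higher and 20.6% lower, 25.9% and 40.9%, and 35.4% and 24.1% in these 3 comparisons. Lcn2, an iron-withholding antimicrobial protein, was at 26.1 ± 3.07 FPKM in WMW-H, 79.1 ± 3.26 FPKM in AOM/DSS and 4.88 ± 0.727 FPKM in Control. Duoxa2, the maturation factor of an epithelial oxidase, was at 48.3 ± 1.86, 77.0 ± 3.42 and 37.0 ± 1.49 FPKM in WMW-H, AOM/DSS and Control. The antimicrobial lectins Reg3b and Reg3g did not share that order: Reg3b was at 763.8 ± 52.7 FPKM in WMW-H, 146 ± 3.42 FPKM in AOM/DSS and 178 ± 5.71 FPKM in Control, and Reg3g at 139 ± 12.8, 59.0 ± 1.52 and 57.3 ± 2.36 FPKM. Reg3b is also made by the pancreas. All 10 acinar genes were higher in WMW-H than in AOM/DSS, as Reg3b was, and 9 were lower in WMW-H than in Control, where Reg3b was higher; their part was not tested. Neutrophil markers, which include the S100a8 and S100a9 of this list, summed to 41.7 to 53.5 FPKM in WMW-H, 73.9 to 91.8 FPKM in AOM/DSS and 11.3 to 14.6 FPKM in Control, with 1 of 9 markers at 0 in all Control libraries, and their part in these counts was not tested. Fut2, a fucosyltransferase of the epithelial surface, fell in AOM/DSS against Control by 0.20 (limma adjusted p = 0.000236).

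Adaptors and targets of the IL-17 receptors were counted likewise. Nfkbiz and Zc3h12a are in both of these lists, and Lcn2 is in both the IL-22 and the IL-17 target lists. Of 18 adaptors and feedback genes, 12 rose and 2 fell in AOM/DSS against Control (median 0.27 against 0.12), which became 9 and 4 with size factors. WMW-H against AOM/DSS had 5 higher and 10 lower (-0.31 against -0.07), and WMW-H against Control had 5 higher and 6 lower. For this list and the next, the shares over all genes tested were 45.5% higher and 20.6% lower in AOM/DSS against Control. They were 25.9% and 40.9% in WMW-H against AOM/DSS, and 35.4% and 24.1% in WMW-H against Control. Traf4, an adaptor that competes for the IL-17 receptor complex, was at 31.0 ± 1.59 FPKM in WMW-H, 46.5 ± 2.50 FPKM in AOM/DSS and 32.3 ± 0.88 FPKM in Control. Zc3h12a, an RNase that ends IL-17 signals, fell in WMW-H against AOM/DSS by 0.53 (limma adjusted p = 3.51e-08). Usp25, a deubiquitinase that restrains the receptor, went against the list in both comparisons, at 13.4 ± 0.435, 11.5 ± 0.538 and 16.1 ± 0.33 FPKM in WMW-H, AOM/DSS and Control. Of 16 genes that IL-17 induces, 13 were tested; 10 rose and 1 fell in AOM/DSS against Control (0.71 against 0.12), WMW-H against AOM/DSS had 3 higher and 8 lower (-0.33 against -0.07), and WMW-H against Control had 9 higher and 2 lower. Cxcl5, a chemokine for neutrophils, was at 7.61 ± 0.604 FPKM in WMW-H, 23.3 ± 0.728 FPKM in AOM/DSS and between 0 and 0.247 FPKM in Control. Pigr, the receptor that carries IgA across the epithelium, ran the other way, at 881.2 ± 12.2, 801.3 ± 13.9 and 957.6 ± 15.9 FPKM in WMW-H, AOM/DSS and Control, but its calls were lost with quantile normalization.

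**Figure D5:**
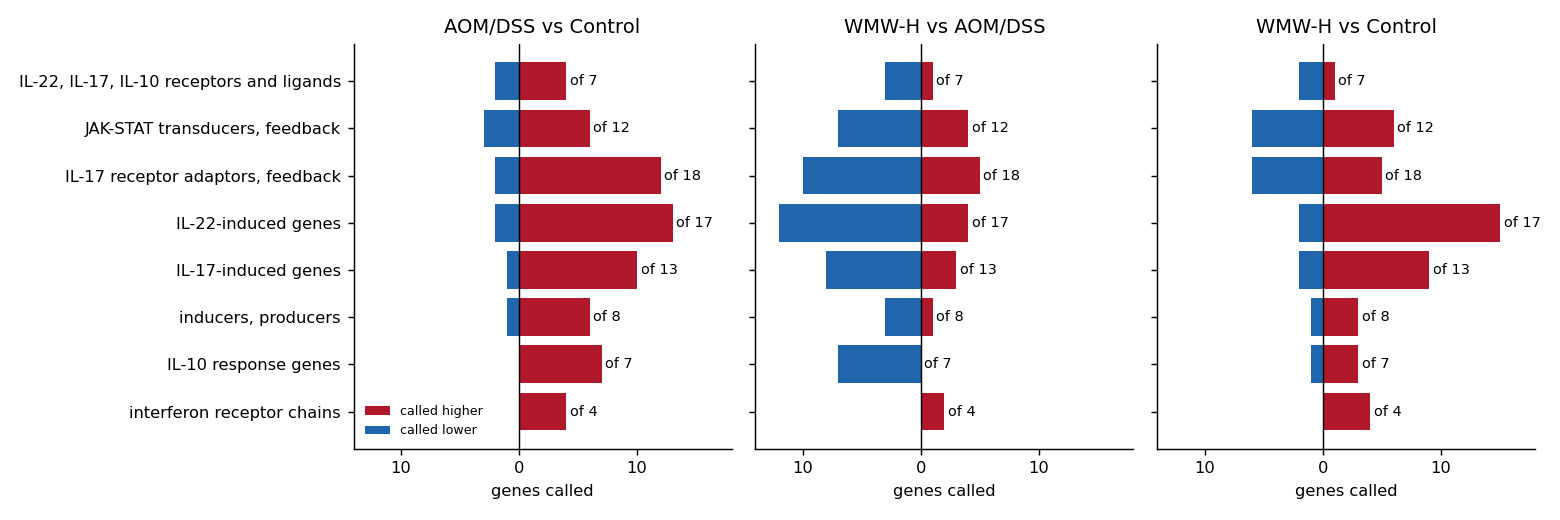
Number of genes called higher (red, to the right of 0) and lower (blue, to the left) by limma in each comparison for the 10 receptor and ligand genes and 7 lists of partner genes; the number tested stands beside each bar. The IL-10 response list has 7 of 7 genes higher in AOM/DSS against Control and 7 of 7 lower in WMW-H against AOM/DSS, and the receptors themselves have 4 and 2, and 1 and 3. All genes tested have 45.5% higher and 20.6% lower in the first, and 25.9% and 40.9% in the second. Some genes stand in several lists, so the bars are not independent.

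The tested genes whose log2(FPKM + 1) followed each receptor most closely over the 15 libraries were found by Pearson correlation, as a description. Predicted gene models (such as Gm and Rik symbols), clone-named genes, pseudogenes and antigen receptor segments were left out of this search. The libraries fall into 3 groups, so such values mainly reflect the group means. For Il22ra1 they were Mfsd2a (r = 0.952), Tmem131 (0.947) and Zfp358 (0.943), all highest in AOM/DSS, as Mfsd2a at 5.02 ± 1.27, 8.04 ± 0.768 and 4.17 ± 0.899 FPKM in WMW-H, AOM/DSS and Control. For Il10rb they were Mmp3 (0.982), a stromal matrix protease at 7.91 ± 0.406, 4.03 ± 0.187 and 0.506 ± 0.224 FPKM in these groups, Igfbp7 (0.981) and Akr1b8 (0.979). For Il22ra2 they were Slc16a5 (0.947), Fam83e (0.94) and Ern2 (0.938), an endoplasmic reticulum stress sensor of goblet cells. Goblet cell markers summed to 6203 to 6361 FPKM in WMW-H, 4901 to 5063 FPKM in AOM/DSS and 8413 to 8659 FPKM in Control. Il22ra2 itself was not called between WMW-H and AOM/DSS, and the part of goblet cells in its differences was not tested. For Il17re they were Echdc3 (0.935), Vat1l (0.932) and Gal (0.931), which encodes a neuropeptide, and for Il10ra Txnl4a (0.918), Fads3 (0.911) and Hspa4l (0.907). Il17ra was followed by Zfp932 (0.944), Impdh2 (0.938) and Asl (0.937). For Il17rc the closest were Lgi4 (0.762), Arhgap27 (0.739) and Zfp395 (0.723), the lowest values among the 7 tested receptors.

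Without WMW-H replicate 3, which stood apart, each call among the 7 genes was kept. In WMW-H against AOM/DSS, Il10ra was then lower by 0.32, Il17ra by 0.28 and Il10rb higher by 0.15 (limma adjusted p = 0.00722, 0.000857 and 0.000765). In WMW-H against Control, Il10rb was higher by 0.47 and Il17re lower by 0.29 (limma adjusted p = 4.36e-09 and 0.000987).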

How the data were processed

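Polyadenylated RNA of 15 colon libraries was made into libraries (NEBNext Ultra) and read on an Illumina sequencer, per the labels' protocols. The authors deposited 1 table of FPKM values, with totals of 507895 to 535410 a library. Tools listed in the submitters' processing notes are RSEM, StringTie 1.3.1, HISAT2, fastp 0.18.0 and Bowtie2 2.2.8. Genome build, annotation and strand setting are not given in the sources used here. Reads of overlapping genes on opposite strands, such as Il17rb and Actr8, may not be told apart.

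Of 22063 genes, 3664 were at 0 throughout, and the 12917 that reached 1 FPKM in 5 or more libraries were fitted as log2(FPKM + 1). The fit used limma 3.58.1 (R 4.3.3), group means over all 15 libraries together, a trended prior and two-sided Benjamini-Hochberg adjustment over all genes tested, at 0.05. This scale understates changes of low genes. Each gene above 0 was also compared by exact permutation of 5 and 5 libraries, where p cannot go below 0.00794. Depth was estimated from single-transcript genes. At that depth 90.7% of their 5263 low values lay no more than 0.1 from a whole fragment; 20% is the chance share. Fragments were recovered only for genes with 1 annotated transcript, so no count model was used. The scripts were tested on simulated data. Python 3.11.15 with numpy 2.4.6, pandas 2.3.3, scipy 1.17.1 and matplotlib 3.10.9 was used.

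Within groups no libraries were duplicates: chi-square per degree of freedom was 2.4 to 3.96 for pairs without WMW-H replicate 3 and 20.6 to 26.1 with it. The labels do not say that libraries came from separate animals, so p-values measure only the spread between these libraries, which may be technical. Alternatives were pseudocounts of 0.1 and 0.5, other filters and scalings, a replicate block, other fits and leaving out each library.

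The members and lists were chosen with earlier results of these data known. The 10 members are named throughout, with up to 5 genes of each partner list by smallest p, those against its majority, and the 3 genes most correlated with each tested member; from these, some are left to the counts. Some genes of the partner lists enter the counts and are not reported here by name.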

Additional observations from a re-analysis of the deposited data

Results flagged for a closer look

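Among 62 genes in 3 groups of 5 libraries (186 groups), 16 libraries lay far from the other 4 of their group by Dixon's criterion, where chance flags about 1 in 20 groups. Among the 10 receptor and ligand genes there were 3. Il17ra was at 2.508 FPKM in Control replicate 1, below 2.755 to 2.844 FPKM in the other 4. Il22 was at 0.055 FPKM in WMW-H replicate 3 and at 0.05 FPKM in Control replicate 3, with 0 in the others, and each is 1 fragment.

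Of the others, 4 were again in WMW-H replicate 3: Reg3b was low there at 673.612 FPKM, Reg3g at 116.83 and Ifngr1 at 102.954, and Tbk1 was high at 22.083 FPKM. In the same group Socs1 was high in replicate 4 at 1.624 FPKM. In AOM/DSS, replicate 1 was high for Il23a at 3.517 FPKM and Pigr at 825.461 FPKM, replicate 2 for Lcn2 at 84.657 FPKM and replicate 5 for Tifa at 15.408 FPKM, and replicate 4 was low for Cxcl5 at 22.061 FPKM. In Control, Fut2 was low in replicate 3 at 104.41 FPKM, and Ifngr2 was high in replicate 2 at 37.474 FPKM and Ifnlr1 in replicate 5 at 2.936 FPKM.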

How the results depend on the processing

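The number of members called stayed within 1.5 times its value under every setting run, with 1 exception: WMW-H against Control had 5 called with median-of-ratios size factors (1 higher, 4 lower) in place of 3. Over all settings it was 5 to 7 for AOM/DSS against Control, 4 for WMW-H against AOM/DSS and 2 to 5 for WMW-H against Control by limma, and 5 to 6, 3 to 4 and 3 by exact permutation. A filter on a mean of 1 FPKM left out Il22ra2. Signs turned for small, uncalled differences. In WMW-H against AOM/DSS, Il17rc was at 0.0122 with size factors and -0.129 to 0.0409 with 1 library left out, and Il17re at -0.0222 with TPM and -0.0177 to 0.0589 with 1 left out. In WMW-H against Control, Il10ra was at -0.0045 with size factors, -0.0453 with quantile normalization and -0.0124 to 0.103 with 1 library left out, Il17rb at -0.0014 with size factors and -0.0300 to 0.102 with 1 left out, and Il17c at -0.0188 to 0.0824 with 1 left out. The cause was not tested. Scaling also set the balance of all calls: 68.9% were higher in AOM/DSS against Control as deposited, with 3765 higher and 4167 lower after quantile normalization (47.5%), 51.4% with size factors and 74.4% with TPM. In WMW-H against AOM/DSS it was 38.8% as deposited and 32.6 to 49.6% over these scalings, and in WMW-H against Control 59.5% and 48 to 59.1%. Same-numbered libraries did not deviate together (correlations -0.047 to 0.03), and the replicate block gave 6, 4 and 3 called in the 3 comparisons, as without it. Depth limits Il22 and Il17c, and Il22 was not run under the alternatives.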
